A study of Homo sapiens with 6 samples.

Results

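The TMED genes encode the p24 proteins, a family of membrane receptors that carry cargo between the endoplasmic reticulum (ER) and the Golgi. Levels of 9 TMED genes (TMED1, TMED2, TMED3, TMED4, TMED5, TMED7, TMED8, TMED9 and TMED10) were followed in H460 cells after knockdown of HKlincR1. The authors class HKlincR1 as a long noncoding RNA, and GENCODE v44 annotates its gene as protein-coding. The TMED genes followed are 9 of the 57773 genes in the expression table, found by matching their Ensembl identifiers to gene symbols. TMED10 was chosen by its lower level after the knockdown in these same libraries, so its values are a description and carry no test. The other 8 genes were taken by name as members of the TMED series, though with earlier results of these data known. TMED6, which was below the expression filter, is not among the 9.

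H460 is an established human non-small-cell lung cancer line. The control group (siNT) received a non-targeting ON-TARGETplus siRNA and the other group (siHKlincR1) received siHKlincR1_2, a single siRNA of the same chemistry directed against HKlincR1, both at 50 nM for 48 h. Each group had 3 libraries of polyA RNA, which the labels call biological replicates. With 1 siRNA sequence in 1 cell line, what follows from the loss of HKlincR1 and what follows from other actions of that siRNA cannot be told apart.

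p24 proteins span the membrane once, with a GOLD domain in the lumen and a short cytosolic tail that binds vesicle coats. They fall into the alpha, beta, gamma and delta subfamilies, assemble with one another into mixed complexes, and cycle in COPII vesicles towards the Golgi and in COPI vesicles back to the ER. They are best known for loading proteins with a glycosylphosphatidylinositol (GPI) anchor into COPII vesicles, and in cultured cells loss of one member often lowers the protein level of its partners.

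The siRNA sequences are shown because short matches to them can be looked for in the TMED transcripts. Strands are written 5′ to 3′, the guide is the reverse complement of the sense strand given in the labels, and the capitals in the guide mark its seed, bases 2 to 8.
siHKlincR1_2 sense strand: gaaguauacucgugugcuu
siHKlincR1_2 guide strand: aAGCACACgaguauacuuc
The heptamer that pairs with the seed, GTGTGCT, was searched on the transcript strand of the 3′ UTR of each gene's canonical transcript (GENCODE v44 on GRCh37). TMED10 was the 1 of the 9 genes that held it, with 1 copy at position 1504 of a 3′ UTR of 3416 nt. The copy lies on the minus strand at chr14:75600078-75600084, shown in capitals within chr14:75600067-75600095.
TMED10 3′ UTR: agtatctttttGTGTGCTaatttgccatc
The base after the heptamer is A. The same heptamer was in the 3′ UTR of 1513 of 10794 tested genes (14.0%), and in 166 of the 682 (24.3%) whose 3′ UTR had a length within 10% of that of TMED10 (3076 to 3755 nt). TMED3 had none in its canonical 3′ UTR of 626 nt and 1 in another annotated 3′ UTR. The heptamer that pairs with bases 2 to 8 of the sense strand, TATACTT, was in TMED5, TMED7 and TMED10 (1 copy each) and in 16.9% of all 3′ UTRs of tested genes. A match is a description of these letters. Whether the siRNA acted on it was not tested.

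HKlincR1 itself (ENSG00000170846) was at 3.62, 3.47 and 3.83 RPKM with siNT and at 0.563, 0.628 and 0.390 RPKM with siHKlincR1, which is 85.5% lower (log2 fold change -2.59, limma's adjusted p = 0.00245). RPKM scales the reads of a gene to its length and to the library total, so levels of different genes can be set side by side. The lengths used ran from 1513 nt for TMED1 to 9423 nt for TMED5. The order, sums and ratios between genes given below depend on these lengths. The libraries held between 24980280 and 30521000 reads, of which 89.9% to 91.1% lay on listed genes, and each TMED gene rested on at least 337 reads in every library. Of the epithelial markers, KRT8, KRT18 and KRT19 had medians of 31.1, 82.0 and 37.5 RPKM, whereas EPCAM (at most 0.110 RPKM) and CDH1 (at most 0.00543 RPKM) were near 0. PTPRC of blood cells and VWF of endothelium were at most 0.0691 and 0.00403 RPKM. Of the fibroblast collagens, COL1A1 was between 0.419 and 1.23 RPKM and COL3A1 between 13.1 and 21.1 RPKM. Values are from bulk RNA, in which fewer cells with a transcript and less of it per cell cannot be told apart.

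TMED10, the only member of the delta subfamily, binds COPI and the GTPase ARF1 through its tail and also associates with the gamma-secretase complex. It was at 41.2, 42.3 and 44.5 RPKM in the siNT libraries and at 24.05, 27.4 and 25.8 RPKM in the siHKlincR1 libraries. These values come from 5187, 5867 and 5046 reads with siNT and from 3107, 3599 and 3504 reads with siHKlincR1. The groups were far apart, and the SD within each was small beside the gap. The mean was 42.7 ± 1.69 RPKM with siNT and 25.7 ± 1.68 RPKM with siHKlincR1 (SD, n = 3), or 39.7% lower. The log2 fold change was -0.73 (SE 0.07, 95% interval -0.90 to -0.56), and within the libraries of the same replicate number it was -0.77, -0.63 and -0.78. Among the 9 TMED genes, 1 (TMED10) met the rule for a called gene, which was a change of over 1.5-fold at an adjusted p under 0.05, against 0.356% of the 15451 tested genes called lower. In the blocked fit, in which libraries sharing a replicate number were compared with each other, 0.809% were called lower, TMED10 again among them. Nothing is read from these counts for TMED10, since this contrast chose it.

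**Figure D1:**
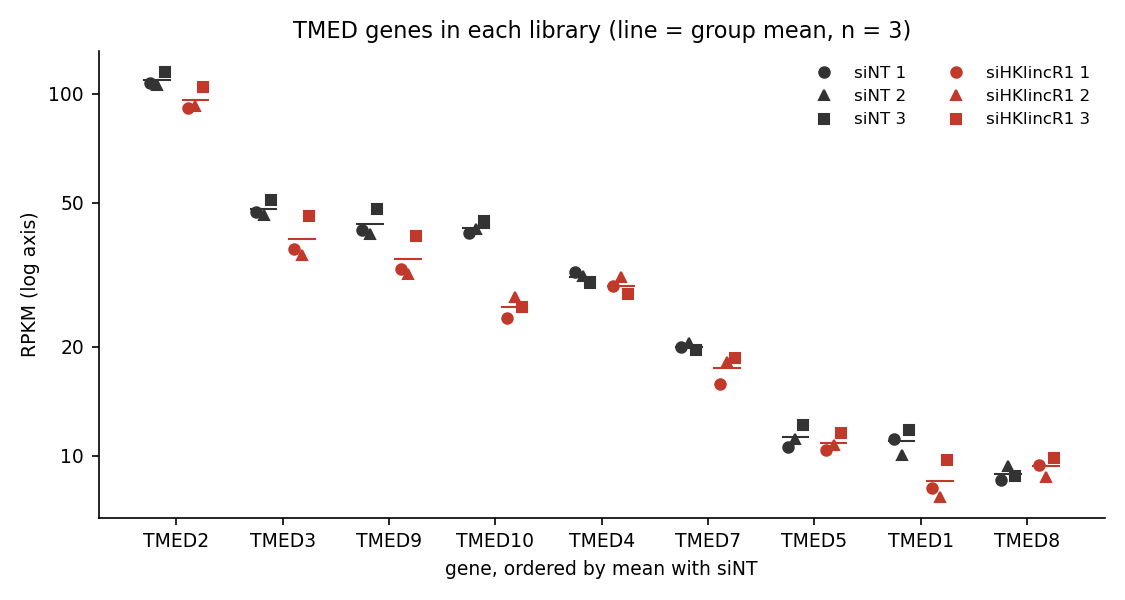
RPKM (log axis) of the 9 TMED genes in each of the 6 libraries, ordered by their mean with siNT. Black points are siNT libraries, red points are siHKlincR1 libraries, symbols mark the replicate number and short lines the group mean. TMED10 is near TMED9 with siNT (42.7 and 43.7 RPKM) and below TMED4 with siHKlincR1 (25.7 and 29.5 RPKM).

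None of the other 8 TMED genes was called in either direction by limma, whether blocked or not. Of the tested genes, 0.00647% were called higher, and 0.511% with the block. Still, 7 of the 8 had a log2 fold change below 0, with a median of -0.19, while the median over all 15451 tested genes was 0.0011. At an unadjusted p under 0.05, 5 of the 8 were lower and 0 were higher, against 9.19% of tested genes that were lower at this level. The same 5, namely TMED1, TMED2, TMED3, TMED7 and TMED9, had every siHKlincR1 library below every siNT library, which was so for 11.9% of tested genes, and 10.1% had every library above. The 8 genes were measured in the same libraries and are not independent of one another.

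TMED9 and TMED4 form the alpha subfamily, whose tails carry a signal for return to the ER. TMED9 was at 41.9, 41.0 and 48.1 RPKM with siNT and at 32.8, 31.9 and 40.4 RPKM with siHKlincR1. All 3 knockdown libraries were lower, though the highest of them was close to the lowest control. The mean went from 43.7 ± 3.83 to 35.02 ± 4.71 RPKM, 19.8% lower, with a log2 fold change of -0.32 (SE 0.11, limma's adjusted p = 0.256). In the blocked fit it had an adjusted p of 0.0471 (limma), so TMED9 was the 1 of the 8 genes to pass an adjusted p under 0.05 there, against 1.72% of tested genes that were lower at this level, but its change was under 1.5-fold. TMED4 was at 32.2, 31.3 and 30.0 RPKM with siNT and at 29.4, 31.1 and 27.9 RPKM with siHKlincR1. Its groups overlapped. The log2 fold change of TMED4 was -0.08 (95% interval -0.24 to 0.08, limma's adjusted p = 0.559).

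TMED2 is the beta subfamily and the closest known partner of TMED10, with which it forms complexes that bind COPI. TMED2 had the highest level of the family in every library, at 107, 106 and 115 RPKM with siNT and at 91.2, 92.7 and 104 RPKM with siHKlincR1. The groups did not overlap, but the third siHKlincR1 library lay just under the lowest control. Its mean went from 109 ± 4.96 to 96.1 ± 7.26 RPKM, 12.1% lower, and the log2 fold change was -0.19 (SE 0.08, limma's adjusted p = 0.300, blocked 0.0871). The 95% interval ran from -0.37 to -0.0089.

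The gamma subfamily has TMED1, TMED3, TMED5 and TMED7, of which TMED1 was first described as a binding partner of the interleukin receptor-like protein ST2 and TMED7 has been tied to the traffic of Toll-like receptors. TMED1 was at 11.1, 10.0 and 11.8 RPKM with siNT and at 8.13, 7.70 and 9.70 RPKM with siHKlincR1. The lowest control stood close above the highest knockdown library. Its mean was 22.5% lower, the second largest difference of the 9, with a log2 fold change of -0.37 (SE 0.11, limma's adjusted p = 0.214, blocked 0.0522). TMED1 also had the fewest reads, 337 to 466, and 910 of its annotated exon bases (48.3%) lie opposite DNM2 on the other strand. TMED3 was at 47.1, 46.3 and 51.0 RPKM with siNT and at 37.3, 35.8 and 46.1 RPKM with siHKlincR1. The third knockdown library lay just below the lowest control and well above the other knockdown libraries. TMED3 was 17.4% lower in the mean (log2 fold change -0.28, SE 0.10, limma's adjusted p = 0.272, blocked 0.0739).

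TMED7 was at 19.98, 20.4 and 19.6 RPKM with siNT and at 15.8, 18.1 and 18.6 RPKM with siHKlincR1. Its control group was the tightest of the family relative to its mean (SD 2.18% of the mean). All knockdown libraries were lower, by 12.6% in the mean, and the log2 fold change was -0.20 (SE 0.08, limma's adjusted p = 0.300, blocked 0.155). TMED5 was at 10.6, 11.1 and 12.2 RPKM with siNT and at 10.4, 10.7 and 11.5 RPKM with siHKlincR1. Its groups overlapped, and the log2 fold change was -0.05 (95% interval -0.24 to 0.14, limma's adjusted p = 0.751).

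TMED8 shares the GOLD domain with the family but is usually left out of its subfamilies. TMED8 was at 8.58, 9.34 and 8.77 RPKM with siNT and at 9.40, 8.73 and 9.87 RPKM with siHKlincR1. It was the 1 gene of the 9 with a mean that was higher after the knockdown, and its groups overlapped. The log2 fold change was 0.07 (95% interval -0.11 to 0.25, limma's adjusted p = 0.667).

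**Figure D2:**
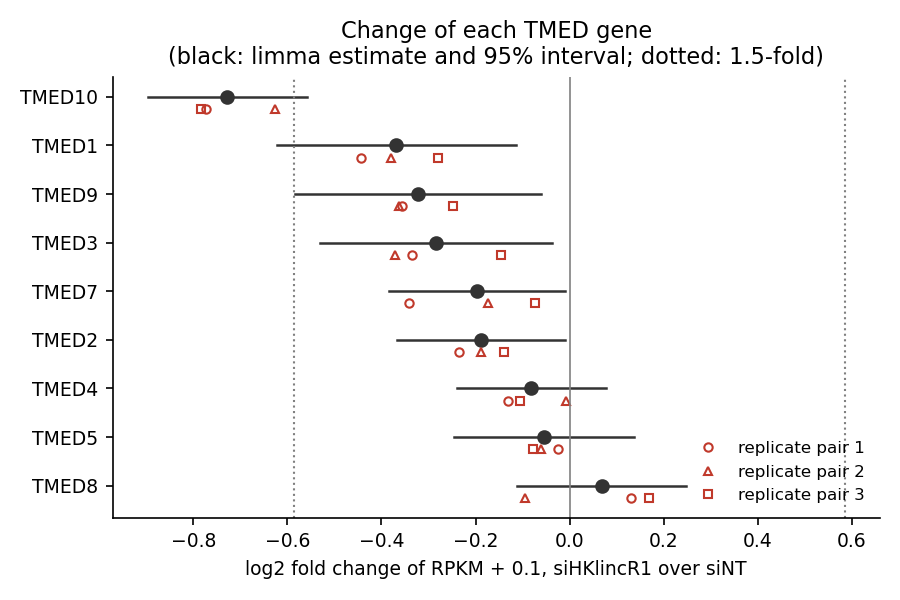
Log2 fold change of RPKM + 0.1, siHKlincR1 over siNT, for each TMED gene. Black points and bars are the limma estimate and its 95% interval, red open symbols are the differences within libraries of the same replicate number, and dotted lines mark 1.5-fold. TMED10 lies at -0.73, and the next gene, TMED1, at -0.37.

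Replicate 3 of both groups bore on most of these values. TMED1, TMED2, TMED3, TMED5 and TMED9 each were highest in replicate 3 within either group, and TMED4 was lowest there. Without the third siHKlincR1 library, the log2 fold changes were -0.46 for TMED1 (limma's adjusted p = 0.0371), -0.43 for TMED9 (0.0391), -0.39 for TMED3 (0.0329), -0.25 for TMED2 (0.0675) and -0.24 for TMED7 (0.109). None of these changes was past 1.5-fold. The share of all tested genes at an adjusted p under 0.05 in that fit, with no fold limit, was not counted. Nothing is therefore read from the members that passed that level. TMED10 remained at -0.73. Over all genes that fit called 315 lower and 205 higher, against 55 and 1 with all 6 libraries, and why this library differs was not tested. With each other library left out, limma's adjusted p was 0.361 to 0.531 for TMED1. It was 0.403 to 0.583 for TMED3 and 0.385 to 0.574 for TMED9. With siNT replicate 3 out, log2 fold changes were -0.32 for TMED1, -0.25 for TMED9, -0.24 for TMED3, -0.15 for TMED2 and -0.21 for TMED7. Either omission leaves replicate 3 of the other group without its same-numbered library. Under both other scalings tried, median-of-ratios and quantile normalisation, 7 of the 8 genes were again below 0, with medians of -0.19 and -0.18.

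The order of levels within the family was much alike in both groups. With siNT it ran from TMED2 (109 RPKM) through TMED3 (48.1), TMED9 (43.7), TMED10 (42.7), TMED4 (31.2), TMED7 (19.999), TMED5 (11.3) and TMED1 (10.98) to TMED8 (8.89). Ranges of neighbours overlapped for TMED3 with TMED9, TMED9 with TMED10, and TMED5 with TMED1, though TMED3 was above TMED9 in each of the 3 libraries, whereas the order of the other pairs held in 2 of 3. With siHKlincR1, TMED10 (25.7 RPKM) came after TMED4 (29.5 RPKM) with no overlap, and TMED1 (8.51 RPKM) came last, overlapping TMED8 (9.34 RPKM).

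The 9 genes together summed to 320, 318 and 341 RPKM with siNT and to 258, 264 and 294 RPKM with siHKlincR1, a mean 16.5% lower. Without TMED10 the sum of the other 8 was 283 ± 11.3 RPKM with siNT and 247 ± 19.1 RPKM with siHKlincR1 (SD, n = 3), 13.0% lower, with no overlap (two-sided exact permutation, p = 0.10, which no comparison of 3 with 3 can go below). TMED10 made up 12.9%, 13.3% and 13.1% of the family sum with siNT and 9.31%, 10.4% and 8.76% with siHKlincR1. The ratio of TMED10 to TMED2 RPKM was 0.384, 0.400 and 0.387 with siNT and 0.264, 0.296 and 0.247 with siHKlincR1, and the ratio of TMED10 to TMED9 was 0.982, 1.03 and 0.926 against 0.734, 0.860 and 0.638. These shares and ratios are descriptions, since they contain TMED10. The ratio of TMED9 to TMED2, which does not, was 0.391, 0.388 and 0.418 with siNT and 0.359, 0.344 and 0.387 with siHKlincR1 (two-sided exact permutation, p = 0.10). Its groups all but touched, at 0.3877 in siNT replicate 2 and 0.3871 in siHKlincR1 replicate 3.

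**Figure D3:**
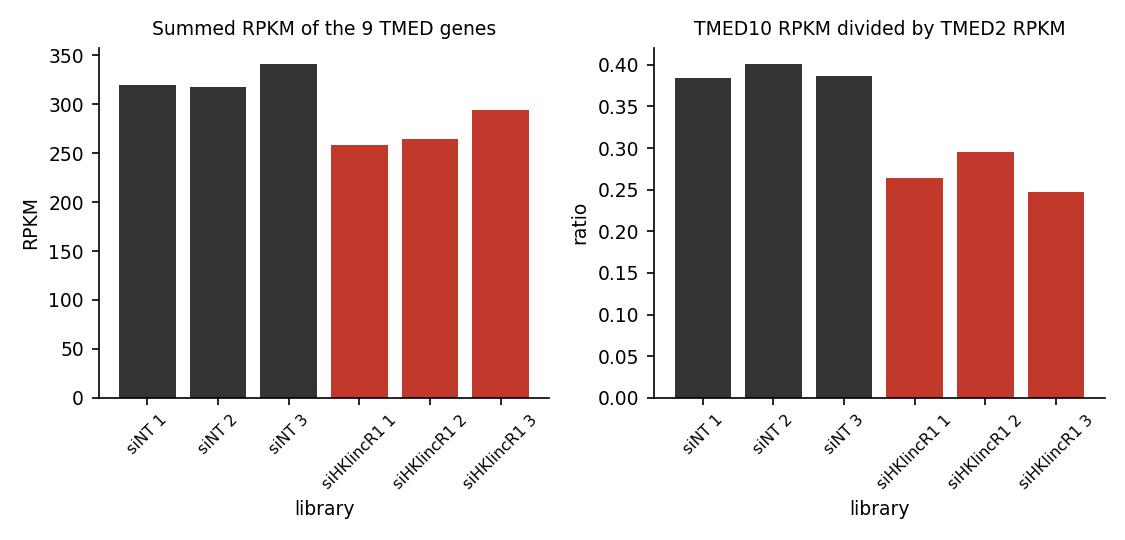
Left, the summed RPKM of the 9 TMED genes in each library; right, TMED10 RPKM divided by TMED2 RPKM in each library. Bars are single libraries, black for siNT and red for siHKlincR1. The sum is 318 to 341 RPKM with siNT and 258 to 294 RPKM with siHKlincR1, and the ratio 0.384 to 0.400 and 0.247 to 0.296.

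Other entries named after TMED genes were read beside their parents, because reads can be shared between near copies. The processed pseudogene TMED10P1, 92.7% identical to the TMED10 transcript over its 655 nt, was at 8.14, 7.90 and 5.68 RPKM with siNT and at 4.13, 5.54 and 6.53 RPKM with siHKlincR1. Its groups overlapped (log2 fold change -0.42, limma's adjusted p = 0.338), and it had 77 to 158 reads, far fewer than TMED10. TMED10P2 (85.9% identical) had 9 to 21 reads and a log2 fold change of -0.60 (limma's adjusted p = 0.315). TMED2P1 (85.8% identical to TMED2) had a log2 fold change of -0.14 (limma's adjusted p = 0.744). TMED6, another gamma member, had 1 to 5 reads, TMED2-DT, on the strand opposite the start of TMED2, had 12 to 32, and TMED11P had 0 in every library, which allows up to 3. The readthrough gene TMED7-TICAM2, which shares 810 exon bases with TMED7, had 1 read in 1 library. Smaller stretches of TMED2 (284 bases), TMED5 (463) and TMED10 (393) lie opposite other annotated genes. How reads shared between copies or strands were assigned is not given in the sources used here, so TMED1, TMED7 and the pseudogenes are uncertain to that extent.

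The 9 genes lie on 7 chromosomes (GRCh37). TMED10 is at chr14:75598172-75643315 on the minus strand and TMED8 on the same chromosome at chr14:77801372-77843437, also minus. TMED7 (chr5:114948907-114968689, minus) and TMED9 (chr5:177019204-177024243, plus) share chromosome 5. The others are TMED1 (chr19:10942743-10946994, minus), TMED2 (chr12:124069080-124083129, plus), TMED3 (chr15:79603454-79719774, plus), TMED4 (chr7:44617493-44621886, minus) and TMED5 (chr1:93615299-93646073, minus). TMED10 and TMED8, the nearest neighbours among them, had log2 fold changes of opposite sign (-0.73 and 0.07).

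The machinery around the p24 proteins was read from 8 lists of pathway members, 79 genes in all, of which 75 were tested. 2 of these, both GPI-anchored proteins, were called lower and 0 higher, against 0.356% and 0.00647% of all tested genes. At an unadjusted p under 0.05, 16 were lower and 3 higher. Of all tested genes, 9.19% were lower at this level, and 2508 of 15451 passed it in either direction. A voom fit on recovered reads called as many as the main fit, 2 lower and 0 higher. The log2 fold change was below 0 for 56 of the 75 (74.7%), with a median of -0.09, against 49.8% and a median of 0.0011 over all tested genes. Every siHKlincR1 library was below every siNT library for 18 of the 75 and above for 2 (CNIH1 and CNIH4), against 11.9% and 10.1% of all tested genes. The seed heptamer was in the 3′ UTR of 8 of the 75, against 14.0% of tested genes with a 3′ UTR. The genes of a list share libraries, and the lists were chosen with earlier results of these data known. Their counts and medians are a description, also where set beside those of all tested genes.

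Of the COPI coat, which returns p24 proteins to the ER, 8 of 9 genes were tested. In that list 5 were below 0 and 3 above, with a median log2 fold change of -0.04, and none was called by limma or reached an unadjusted p under 0.05. COPG2 (0.16), COPB2 (-0.14) and COPA (0.13) differed most, and the groups overlapped for each. The ARF GTPases that recruit the coat, with their regulators, had a median of -0.08, with all 8 below 0 and 0 called by limma. Of these 8, 2 were lower at an unadjusted p under 0.05, against 9.19% of all tested genes. ARF3 stood out with 30.8 ± 2.70 RPKM with siNT and 22.9 ± 2.07 RPKM with siHKlincR1, a log2 fold change of -0.42 (limma's adjusted p = 0.140, blocked 0.0296). The 3′ UTR of ARF3 holds 1 copy of the seed heptamer. ARFGAP3 (-0.19) and ARFGAP2 (-0.07, limma's adjusted p = 0.585), like ARF3, had no overlap between groups. In this direction that was so for 11.9% of all tested genes. ARFGAP1 (-0.10) overlapped.

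In the COPII coat, which carries cargo out of the ER, 10 of 13 genes were below 0, with a median of -0.09 and 0 called by limma. Of the 13, 5 were lower at an unadjusted p under 0.05, against 9.19% of all tested genes. SEC23A, an inner coat subunit, was at 9.26 ± 0.231 and 7.08 ± 0.364 RPKM (log2 fold change -0.38, limma's adjusted p = 0.0973, blocked 0.0463). The coat GTPase SAR1A was at 15.96 ± 0.587 and 12.5 ± 0.586 RPKM (-0.35, limma's adjusted p = 0.103, blocked 0.0444). SAR1B held 1 seed heptamer, and SEC23A, SAR1A and SEC24A held 0. For SEC23A, SAR1A, SAR1B and PREB no siHKlincR1 library reached the siNT range, against 11.9% of all tested genes with every siHKlincR1 library below. SEC24A, a cargo-binding subunit, had -0.31 and overlapping groups.

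Among other ER-Golgi cargo receptors, 11 of 14 were below 0, with a median of -0.13 and 0 called by limma. At an unadjusted p under 0.05, 3 were lower (LMAN2L, SURF4 and KDELR1), against 9.19% of all tested genes, and 2 were higher (CNIH1 and CNIH4). SURF4, a receptor for soluble cargo, averaged 137 ± 13.3 RPKM in controls and 109 ± 16.3 RPKM after the knockdown (log2 fold change -0.34, limma's adjusted p = 0.265, blocked 0.0444). The lectin LMAN2L had -0.39 and the KDEL receptor KDELR3 -0.35 (limma's adjusted p = 0.299 and 0.314). KDELR1 was the fourth gene of this list without overlap downwards, against 11.9% of all tested genes. Upwards the cornichon gene CNIH1, at 0.30, and CNIH4 had none, against 10.1% of all tested genes. ER-Golgi SNAREs, tethers and stacking proteins had 5 of 9 tested genes below 0, a median of -0.10 and 0 called. Of the 9, 1 had an unadjusted p under 0.05, against 2508 of 15451 tested genes in either direction. This was the SNARE BET1, with a log2 fold change of 0.43 (limma's adjusted p = 0.302) and overlapping groups. YKT6 had -0.17 and GORASP1 -0.18, the latter without overlap, as had 11.9% of all tested genes in this direction.

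Genes that attach or remodel the GPI anchor, which p24 proteins recognise in its remodelled form, had a median of -0.01, with 6 of 9 below 0 and 0 called. Of the 9, 1 was lower at an unadjusted p under 0.05, against 9.19% of all tested genes. That 1 was GPAA1, a subunit of the transamidase, with -0.21 (limma's adjusted p = 0.246). It had no overlap between groups, as had 11.9% of all tested genes in this direction. PIGS had -0.11 and PGAP3, with 1 seed heptamer, -0.06. Of the gamma-secretase subunits, 5 of 6 were below 0, the median was -0.09, and none was called or reached an unadjusted p under 0.05. PSEN2, with 1 seed heptamer, had -0.16 and APH1A -0.13.

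GPI-anchored proteins, the cargo class best tied to TMED10, had the lowest median of the 8 lists, -0.27. The 10 genes of this list were chosen with earlier results of these data known. Nothing on TMED10 is read from them. Of 8 tested genes, 6 were below 0 and 5 (CD59, CD55, CD109, GPC1 and ULBP2) had every siHKlincR1 library below every siNT library, against 11.9% of all tested genes. CD59, which shields cells from complement lysis, was at 14.0, 13.0 and 12.8 RPKM with siNT and at 9.22, 8.58 and 8.47 RPKM with siHKlincR1. The groups were well apart, and CD59 fell by 0.59 on the log2 scale (SE 0.07, limma's adjusted p = 0.0283, blocked 0.0187). ULBP2, a ligand of the NK-cell receptor NKG2D, was at 5.50, 4.74 and 5.02 RPKM with siNT and at 3.15, 3.28 and 3.02 RPKM with siHKlincR1. It fell by 0.67 (SE 0.09, limma's adjusted p = 0.0365, blocked 0.0374). ULBP2 has close paralogues with which reads may be shared. CD55, another complement inhibitor, had the highest level of the list, 367 ± 6.27 RPKM with siNT and 269 ± 37.5 RPKM with siHKlincR1 (log2 fold change -0.46, limma's adjusted p = 0.155, blocked 0.0592). The 3′ UTRs of CD59 and CD109 each held 1 seed heptamer, and those of ULBP2 and CD55 held 0. CD59 and ULBP2 were each called under 8 of 16 other settings, with adjusted p between 0.0115 and 0.178 and between 0.0282 and 0.213. CD59 was not called without any 1 of the 6 libraries. ULBP2 was called without the third siHKlincR1 library and not without any 1 of the other 5.

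**Figure D4:**
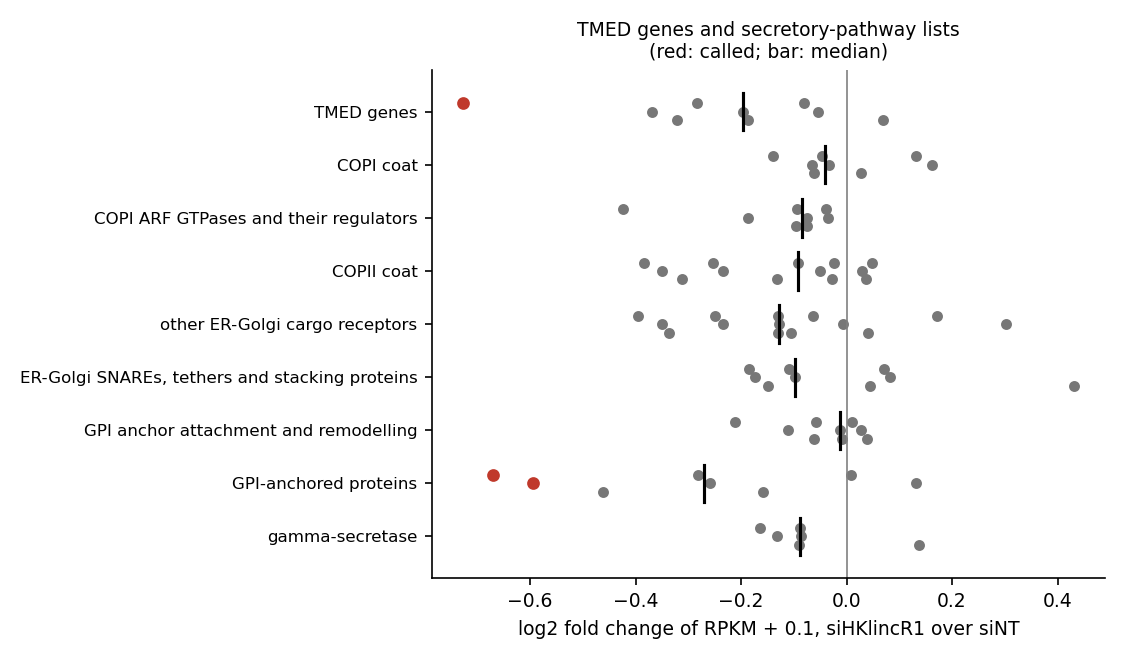
Log2 fold change of RPKM + 0.1, siHKlincR1 over siNT, for the TMED genes and for the tested genes of the 8 secretory-pathway lists. Each point is a gene, red points were called, and bars are the list medians, which range from -0.27 for GPI-anchored proteins to -0.01 for GPI anchor attachment. The red points are TMED10, which was picked by this contrast, CD59 and ULBP2.

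Genes whose levels over the 6 libraries ran most like those of TMED10 were ranked by Pearson's r on the log2 scale, as a description. The 5 highest were QPCT (r = 0.999), an enzyme that forms N-terminal pyroglutamate, DLG5 (0.997), a scaffold protein of cell junctions, the Golgi protein GOLGA3 (0.995), ENSG00000269973 (0.994) and ZDHHC7 (0.992), a palmitoyltransferase of the Golgi. QPCT averaged 140 ± 3.99 RPKM in controls and 103 ± 3.74 RPKM after the knockdown, and GOLGA3 at 13.4 ± 0.283 and 9.08 ± 0.354 RPKM. DLG5 and GOLGA3 each hold 1 seed heptamer in the 3′ UTR, and QPCT and ZDHHC7 hold 0. Of the 5, 3 were among the 45 genes tied at the highest Spearman's rho. All points share the 6 libraries and the 2 groups. Within the family, r with TMED10 was 0.843 for TMED7, 0.828 for TMED1, 0.817 for TMED2, 0.789 for TMED9, 0.758 for TMED3, 0.604 for TMED4, 0.429 for TMED5 and -0.53 for TMED8. TMED7 ranked highest of these, at place 850 of the 15451 tested genes.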

How the data were processed

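Strand-specific polyA libraries of H460 cells (3 siNT, 3 siHKlincR1) were sequenced as paired ends. The authors used Rsubread to count reads per Ensembl gene and deposited the result as RPKM. The submitters' processing notes name CASAVA 1.8.2, featureCounts and the builds hg19 and GRCh37. The aligner and the strand setting of the counting are not given in the sources used here. RPKM values of all 31287 genes above 0 came out as whole reads (tolerance 1e-05), which gave library totals, gene lengths and reads. On made-up tables with known reads, 99.4% of genes averaging 10 reads or more were recovered exactly. A gene at 0 allows up to 3 reads, for counting error only.

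log2(RPKM + 0.1) was tested with limma 3.58.1 (trend, R 4.3.3) over the 15451 genes averaging 0.5 RPKM or more, without covariates, and p-values were adjusted by the Benjamini-Hochberg method. Calls needed an adjusted p under 0.05 and a change of over 1.5-fold. This scale understates changes of low genes. The authors used edgeR on counts with the same thresholds. They reported more altered genes in each direction than were called here, most of them up-regulated. The near absence of genes called higher thus belongs to this fit on RPKM. Same-numbered libraries had r = 0.142, 0.137 and 0.266 between their deviations from the group means, and other pairs -0.209 to 0.113. Only replicate 3 stood out, since replicates 1 and 2 were close to siNT replicate 1 with siHKlincR1 replicate 2 (0.113). The pairing comes from the replicate numbers in the labels, and a blocked fit, with that number as a term, is given. The fit was also run on simulated reads with planted changes larger than any TMED change here and with no replicate effect. That run does not bear on changes of the sizes seen here.

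The members and the pathway lists were chosen with earlier results of these data known. Named were all TMED entries, HKlincR1, the called genes and at most 3 largest changes of each list, and the 5 genes most like TMED10. A gene that meets this rule is not reported here. ARFGAP2, SAR1B, PREB, KDELR1, CNIH1, CNIH4, CD109 and GPC1 were named after their values were seen. SEC22B had no matched entry, and COPZ2, THY1 and FOLR1 were below the filter. Symbols were found for 55538 of 57773 identifiers in GENCODE v44 on GRCh37. Alternatives changed the pseudocount, filter, scaling, variance model, fold limit and pairing, or left out each library.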

Additional observations from a re-analysis of the deposited data

How the results depend on the processing

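TMED10 had log2 fold changes from -0.77 to -0.68 over 16 alternatives, and in 5 of them (no mean-variance trend, and without siNT replicate 1, 2 or 3 or siHKlincR1 replicate 1) it was not called. The other 8 TMED genes stayed on the same side of the calling threshold in all 16, and the sign of TMED5 turned once, to 0.00081 without siNT replicate 3 (-0.10 to 0.00081 without single libraries). TMED genes called lower (1 with all libraries) numbered 0 without the trend and 0 to 1 without single libraries. Pathway list genes called lower (2) numbered 0 with a pseudocount of 1 RPKM, 1 with no filter, 0 without the trend and 0 to 1 without single libraries. No TMED or list gene was called higher under any alternative. Over all genes, 55 called lower became 34 with no filter, 16 without the trend, 87 with voom on recovered reads, 125 with the replicate block and 7 to 315 without single libraries, of which the omission of siHKlincR1 replicate 3 gave 315 and that of any other library 7 to 18. The 1 called higher became 0 with a pseudocount of 0.01 RPKM, 12 with no filter, 2 with voom, 79 with the block, 2 with no fold limit and 0 to 205 without single libraries. The cause of these shifts was not tested. The block changed the call of no TMED or list gene. Depth was at least 337 reads for each TMED gene in each library. The RPKM scale is relative, so a shift common to all genes would not be seen.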
